A study of Sorghum bicolor with 12 samples.

Results

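In sorghum roots (Sorghum bicolor), 147 of the 20818 genes listed had lower transcript levels in drought than in water in both of a pair of near-isogenic lines, and these 147 genes are described here. Levels are given as CPM, the reads of a gene per 1000000 reads of its library, and drought differences as drought minus water on the scale log2(CPM + 0.5). A gene was a member when all 3 drought libraries lay below all 3 watered libraries in each line and its mean difference was -0.7 or less in each line. The drought values of all 12 libraries chose the members, so these differences are given as a description, without a test.

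The 4 groups each held 3 biological replicates of roots from mature plants. NIL-bri1-72 was sampled in drought, at 30% of field capacity, and in water as the control, and NIL-WT-72 was sampled in the same regimes. Both lines are BC2F3 plants from EMS mutagenesis that the study treats as near-isogenic. The gene of the brassinosteroid receptor SbBRI1 has a single-nucleotide change in NIL-bri1-72, in its extracellular region, that NIL-WT-72 lacks. The study's stated purpose was to find early targets of SbBES1, a transcription factor of the brassinosteroid pathway, in drought. Each genotype is 1 line, so effects of SbBRI1 and of other segments in which the lines may differ cannot be told apart. Totals ranged from 18640601 to 33296273 counted reads per library.

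Brassinosteroids are plant steroid hormones that promote growth. BRI1 binds them at the cell surface, and the signal reaches the nucleus through BES1 and its relatives, which switch target genes on or off. Roots in drying soil accumulate the stress hormone abscisic acid and adjust growth and water uptake. In bulk roots, fewer cells of a type and less RNA per cell cannot be told apart.

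The table of counts holds identifiers without gene names, and 0 of the 20818 identifiers matched the reference gene table. The members are therefore described by level, spread, line and place, with no function given. Root markers and pathway lists were not analysed here, so the labelled tissue was not checked against markers. Chromosome and order were read from the identifiers, whose digits give the chromosome up to the letter G and the order behind it by the usual numbering in sorghum. This reading was not compared with a genome here. Sobic.006G011900 and Sobic.009G004900 are named as the members with the most negative mean difference. All other identifiers were chosen after their values were seen.

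The members had similar median differences in the lines. The rule asked for -0.7 or less in each line, so genes lowered in a single line are not among them. In NIL-bri1-72 their drought difference had a median of -1.20 log2 units, with quartiles of -1.52 and -0.94, beside a median of -0.02 over all genes. In NIL-WT-72 the median was -1.22, with quartiles of -1.66 and -0.94, beside 0.01 over all genes. A difference of -1 or less, a decrease of 2-fold or more, was found for 99 members in NIL-bri1-72, for 101 in NIL-WT-72 and for 84 in both lines. At -2 or less stood 12 members in NIL-bri1-72, 19 in NIL-WT-72 and 9 in both. Members with a large difference in one line tended to have a large one in the other (Spearman rho 0.734 across the 147 members and 0.502 across all genes, given as a description, since genes share libraries and the rule truncates both axes).

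**Figure D1:**
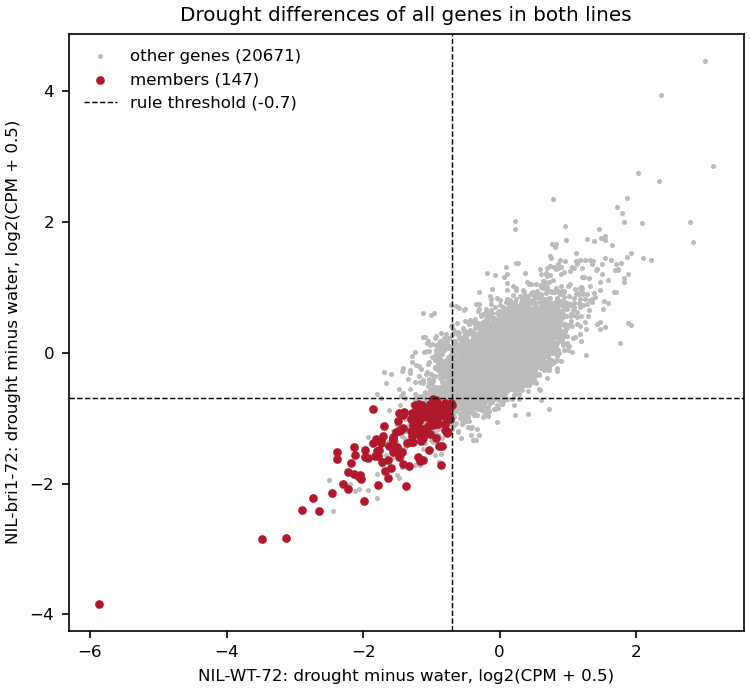
Drought minus water, in log2(CPM + 0.5), in NIL-WT-72 (x axis) and NIL-bri1-72 (y axis) for each of the 20818 genes, with the 147 members in red and dashed lines at the threshold of -0.7. The members lie in the lower left corner among other genes whose replicates overlapped, and 1 member stands apart at -3.84 in NIL-bri1-72 and -5.86 in NIL-WT-72.

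Each condition of the rule removed genes. A difference of -0.7 or less was reached by 553 genes in NIL-bri1-72, by 617 in NIL-WT-72 and by 350 in both. Of these 350 genes, 203 were left out because replicates overlapped, in NIL-bri1-72 alone for 40 genes, in NIL-WT-72 alone for 88 and in both lines for 75. Drought libraries lay below the watered ones without overlap for 5.95% of all genes in NIL-bri1-72 and 4.54% in NIL-WT-72, which the 147 members do by choice. The member nearest the threshold had differences of -0.799 in NIL-bri1-72 and -0.703 in NIL-WT-72. The nearest gene outside that met every other condition had -0.696 and -0.871.

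Members were found among genes with few reads and with many. Their mean over the watered libraries ranged from 1.68 to 1009 CPM, with a median of 12.6 CPM. Members made up 0.631% of the genes under 5 CPM in water (29 of 4597), 1.01% of those from 5 to 20 CPM (64 of 6329), 0.466% of those from 20 to 100 CPM (35 of 7513) and 0.799% of those at 100 CPM or more (19 of 2379). CPM is not corrected for transcript length, so these classes group genes by their reads. In drought 39 members averaged under 2 CPM and 7 under 1 CPM. No gene in the table has a count of 0, and the lowest value of any library is 0.379 CPM, so genes silent in a library are not analysed here.

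The members' share of all reads was lower in drought, which the rule fixes in advance, so only its size is described. In NIL-bri1-72 the members held 0.434%, 0.316% and 0.284% of the reads in drought replicates 1 to 3, against 0.732%, 0.867% and 0.722% in water. In NIL-WT-72 they held 0.270%, 0.311% and 0.384% in drought, against 0.641%, 0.785% and 0.853% in water. The regimes did not overlap in either line, also by the rule, while the lines overlapped within each regime. The means were 0.345% ± 0.0789 in drought and 0.774% ± 0.0812 in water for NIL-bri1-72, and 0.322% ± 0.0578 in drought and 0.760% ± 0.108 in water for NIL-WT-72 (SD, n = 3 each). A few members carried much of this share: the 5 with the most reads held 47.3% of the members' reads in drought and 44.9% in water in NIL-bri1-72, and 42.9% in drought and 37.1% in water in NIL-WT-72. Without these 5 the share was 0.180% ± 0.0310 in drought and 0.424% ± 0.0212 in water for NIL-bri1-72, and 0.187% ± 0.0627 in drought and 0.479% ± 0.0956 in water for NIL-WT-72 (SD, n = 3 each).

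Many members were high or low together in single libraries. In NIL-bri1-72 drought replicate 1 they lay a median of 0.34 log2 units above their group mean, beside 0.05 over all genes, and this library was the highest of its group for 95 members (64.6%, beside 43.8% of all genes). In NIL-WT-72 drought replicate 3 the median was 0.42, beside 0.02 over all genes, and this library was the highest for 121 members (82.3%, beside 41.0%). Both libraries thus had the weakest lowering of their group. NIL-WT-72 water replicate 3 lay above its group by 0.24 and was the highest for 87 members (59.2%, beside 38.6%). The watered libraries of NIL-bri1-72 deviated by -0.06, -0.03 and 0.09. The rule kept 210 genes, 143 of them among the 147, when NIL-bri1-72 drought replicate 1 was left out. It kept 259, with 145 of the 147, when NIL-WT-72 drought replicate 3 was left out. Leaving out a library loosens the condition on overlap by construction. With each of the 12 libraries left out in turn, the rule kept 135 to 259 genes. What sets these libraries apart was not tested.

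**Figure D2:**
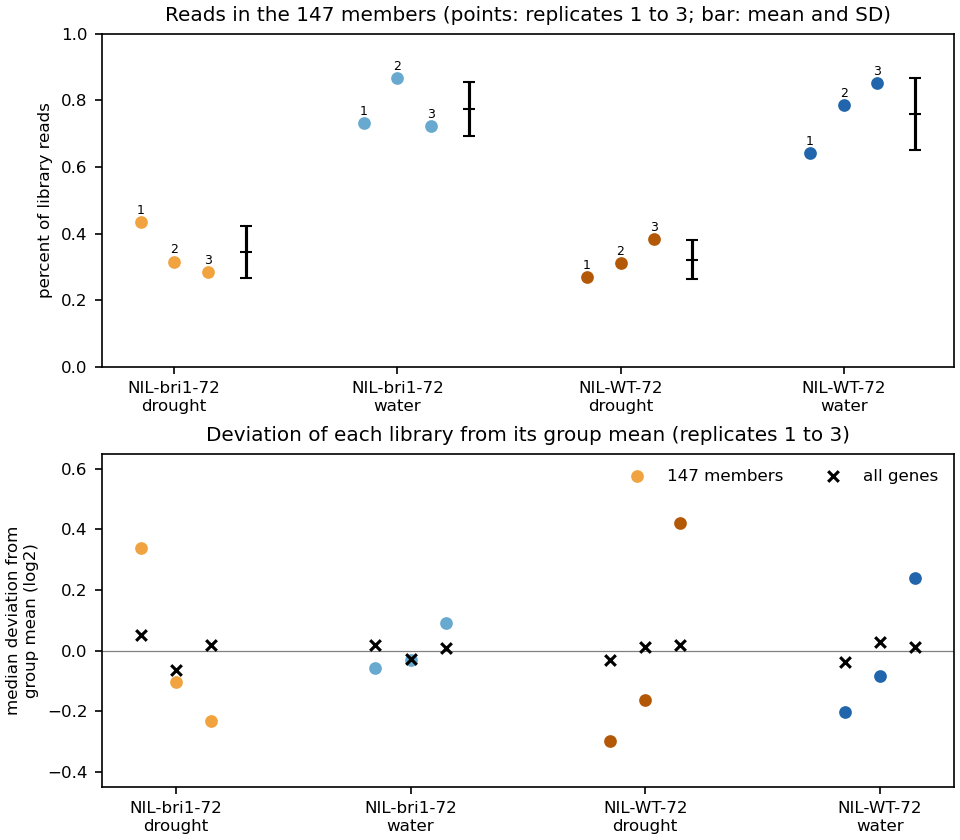
Upper panel, percent of each library's reads in the 147 members (y axis) by group (x axis), with replicate numbers at the points and the mean with its SD beside them; lower panel, median deviation of each library from its group mean in log2 units for the members (circles) and all genes (crosses), replicates 1 to 3 from left to right. Drought libraries lie between 0.270% and 0.434% and watered ones between 0.641% and 0.867%, and the circles of NIL-bri1-72 drought replicate 1 and NIL-WT-72 drought replicate 3 lie highest.

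Since the rule used every library, the choice was repeated on 2 of the 3 replicate numbers and the drought difference was read in the libraries left out. On replicates 2 and 3 the rule chose 302 genes, of which 262 (86.8%) were lower in drought in both lines in replicate 1, beside 26.6% of all genes. On replicates 1 and 3 it chose 190, of which 176 (92.6%) were lower in both lines in replicate 2, beside 32.6% of all genes. On replicates 1 and 2 it chose 252, of which 224 (88.9%) were lower in both lines in replicate 3, beside 33.0% of all genes. A difference of -0.7 or less in both lines in the libraries left out was reached by fewer: 33.4%, 64.2% and 50.8% of the genes chosen, beside 0.922%, 2.20% and 1.71% of all genes. Of the genes chosen, 127 of 302, 127 of 190 and 132 of 252 are among the 147 members, so these shares describe the rule more than the members. Their median difference in the libraries left out was -0.55, -1.11 and -1.25 in replicates 1 to 3 of NIL-bri1-72, and -1.01, -1.13 and -0.84 in NIL-WT-72. The smallest of these sizes in each line were in the pairs that hold NIL-bri1-72 drought replicate 1 and NIL-WT-72 drought replicate 3.

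The member with the most negative difference was Sobic.006G011900 on chromosome 6. In NIL-bri1-72 it had 2.86, 3.86 and 3.74 CPM in drought, against 30.0, 191.0 and 30.4 CPM in water. NIL-WT-72 showed 0.749, 0.871 and 2.51 CPM in drought, against 74.1, 106.1 and 126.8 CPM in water. No drought library came near a watered one, and water replicate 2 of NIL-bri1-72 stood far above the others of its group. The means of Sobic.006G011900 were 3.49 ± 0.544 CPM in drought and 83.8 ± 92.8 CPM in water for NIL-bri1-72, and 1.38 ± 0.982 CPM in drought and 102.3 ± 26.6 CPM in water for NIL-WT-72 (SD, n = 3 each). The drought difference was -3.84 in NIL-bri1-72, or -2.96 without that water replicate 2, and -5.86 in NIL-WT-72, or -4.95 with 2 CPM added before the log in place of 0.5.

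Sobic.009G004900 on chromosome 9 came next. In NIL-bri1-72 it had 4.74, 3.44 and 2.02 CPM in drought, against 19.6, 25.8 and 35.9 CPM in water. In NIL-WT-72 its levels were 2.21, 3.10 and 5.20 CPM in drought, against 46.0, 25.7 and 63.2 CPM in water. The drought levels of the lines overlapped closely. The drought difference was -2.84 in NIL-bri1-72 and -3.48 in NIL-WT-72, and with 1 library of the line left out it lay between -3.09 and -2.56 in NIL-bri1-72 and between -3.83 and -3.19 in NIL-WT-72.

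The rule did not use the place of a gene, and members lay near each other. Of the 147 members, 28 (19.0%) had another member within 2 places in the order of listed genes. Seen from the members, 32 of the 588 places within 2 of a member held a member (5.44%), while members were 0.706% of all listed genes. In a set chosen by the same rule for higher levels in drought, which is 0.341% of all genes, 2 of 71 genes (2.82%) had such a neighbour. A smaller set gives fewer such neighbours by its size, so the shares of the 2 sets are not on one scale. The share of 19.0% lay between 15.3% and 21.7% under other thresholds, another scaling, no condition on overlap and each library left out. The 28 members formed 11 pairs and 2 runs of 3 on 6 chromosomes. Of the 20 members with the most negative mean difference 11 were in runs (55%), and of the other 127 members 17 were (13.4%). By chromosome, members were 1.33% of the listed genes on chromosome 5 (15 of 1131) and 0.988% on chromosome 8 (11 of 1113), down to 0.470% on chromosome 9 (8 of 1701). No sequence of these genes was used here: where neighbours are similar copies, counting could split reads between them, and their own reads and shared reads cannot be told apart.

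The listed genes beside members had median differences near 0, with some exceptions. The 272 immediate neighbours that were no members had a median drought difference of -0.08 in NIL-bri1-72 and -0.06 in NIL-WT-72. Of these, 126 (46.3%) were lower in both lines, beside 34.5% of all genes, and 9 (3.31%) had -0.7 or less in both lines, beside 0.982% of all genes that were no members. Among the genes around the 13 runs, 5 that were no members had -0.7 or less in both lines, each at a different run, and none of these 5 runs is among the 4 plotted.

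**Figure D3:**
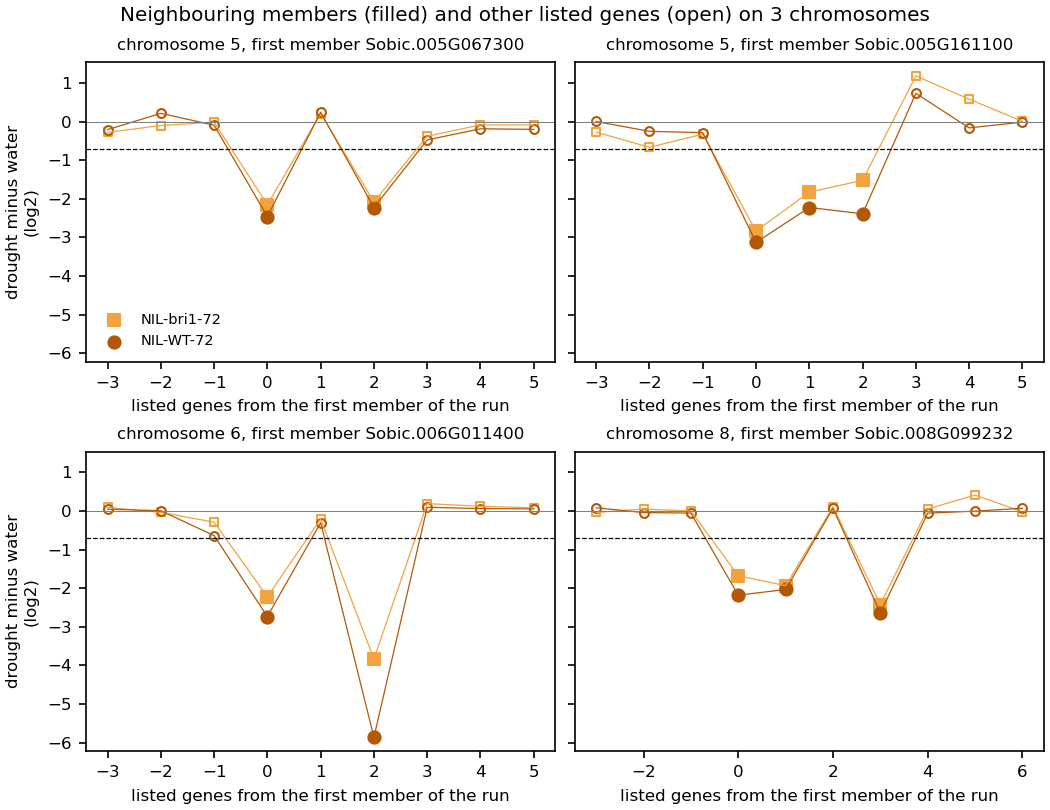
Drought minus water in log2(CPM + 0.5) (y axis) for the listed genes around 4 runs of neighbouring members (x axis, listed genes counted from the first member) in NIL-bri1-72 (squares) and NIL-WT-72 (circles), with members filled, other genes open and a dashed line at -0.7. Members lie between -5.86 and -1.52, and every open symbol lies above the dashed line, which does not hold around 8 of the 9 runs not drawn.

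On chromosome 5, Sobic.005G161100, Sobic.005G161200 and Sobic.005G161600 followed each other in the table. Sobic.005G161100 had 1.06, 1.62 and 1.15 CPM in NIL-bri1-72 drought, against 8.71, 12.7 and 15.7 CPM in NIL-bri1-72 water. NIL-WT-72 roots had 0.749, 0.387 and 1.61 CPM in drought, against 8.07, 11.6 and 14.6 CPM in water. The lines overlapped in both regimes, and the lowest library held 12 reads of the gene, close to the lowest counts listed. Sobic.005G161200 had 2.86, 12.3 and 2.59 CPM in NIL-bri1-72 drought, against 12.5, 33.7 and 12.7 CPM in NIL-bri1-72 water. In NIL-WT-72 it had 6.47, 3.42 and 4.90 CPM in drought, against 24.2, 36.9 and 15.8 CPM in water. Replicate 2 of NIL-bri1-72 was the highest of its group in both regimes. The same held for Sobic.005G161600, with 0.784, 3.37 and 1.03 CPM in NIL-bri1-72 drought, against 4.51, 8.41 and 3.52 CPM in NIL-bri1-72 water. NIL-WT-72 showed 0.987, 0.580 and 1.12 CPM in drought, against 5.31, 9.71 and 5.78 CPM in water. The next listed gene, Sobic.005G161700, differed the other way, by 1.19 log2 units in NIL-bri1-72 and 0.73 in NIL-WT-72.

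On chromosome 8, Sobic.008G099232, Sobic.008G099300 and Sobic.008G099600 lay within 4 listed places. Sobic.008G099600 had 11.1, 2.76 and 1.37 CPM in NIL-bri1-72 drought, against 25.8, 17.9 and 22.0 CPM in NIL-bri1-72 water. In NIL-WT-72 its levels were 3.37, 3.13 and 4.86 CPM in drought, against 21.0, 20.7 and 39.9 CPM in water. Drought replicate 1 of NIL-bri1-72 was the least lowered, as for most members. Sobic.008G099300 had 10.2, 5.29 and 2.55 CPM in NIL-bri1-72 drought, against 22.7, 17.8 and 24.5 CPM in NIL-bri1-72 water. NIL-WT-72 roots had 3.47, 4.42 and 12.7 CPM in drought, against 17.7, 23.1 and 40.8 CPM in water. Replicate 3 of NIL-WT-72 was the highest of its group in both regimes for both genes. Sobic.008G099232 had drought differences of -1.68 in NIL-bri1-72 and -2.18 in NIL-WT-72. The listed gene inside the run, Sobic.008G099500, had 0.11 and 0.07.

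On chromosome 6, Sobic.006G011400 lay 2 listed places before Sobic.006G011900. It had 1.41, 4.09 and 1.34 CPM in NIL-bri1-72 drought, against 8.05, 10.8 and 16.6 CPM in NIL-bri1-72 water. In NIL-WT-72 it had 1.63, 1.87 and 11.8 CPM in drought, against 16.4, 20.7 and 50.9 CPM in water. Replicate 3 of NIL-WT-72 was again the highest in both regimes. The gene between the pair, Sobic.006G011500, had differences of -0.21 in NIL-bri1-72 and -0.30 in NIL-WT-72. A second pair on chromosome 5, Sobic.005G067300 and Sobic.005G067500, had differences of -2.15 and -2.08 in NIL-bri1-72 and of -2.46 and -2.22 in NIL-WT-72.

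**Figure D4:**
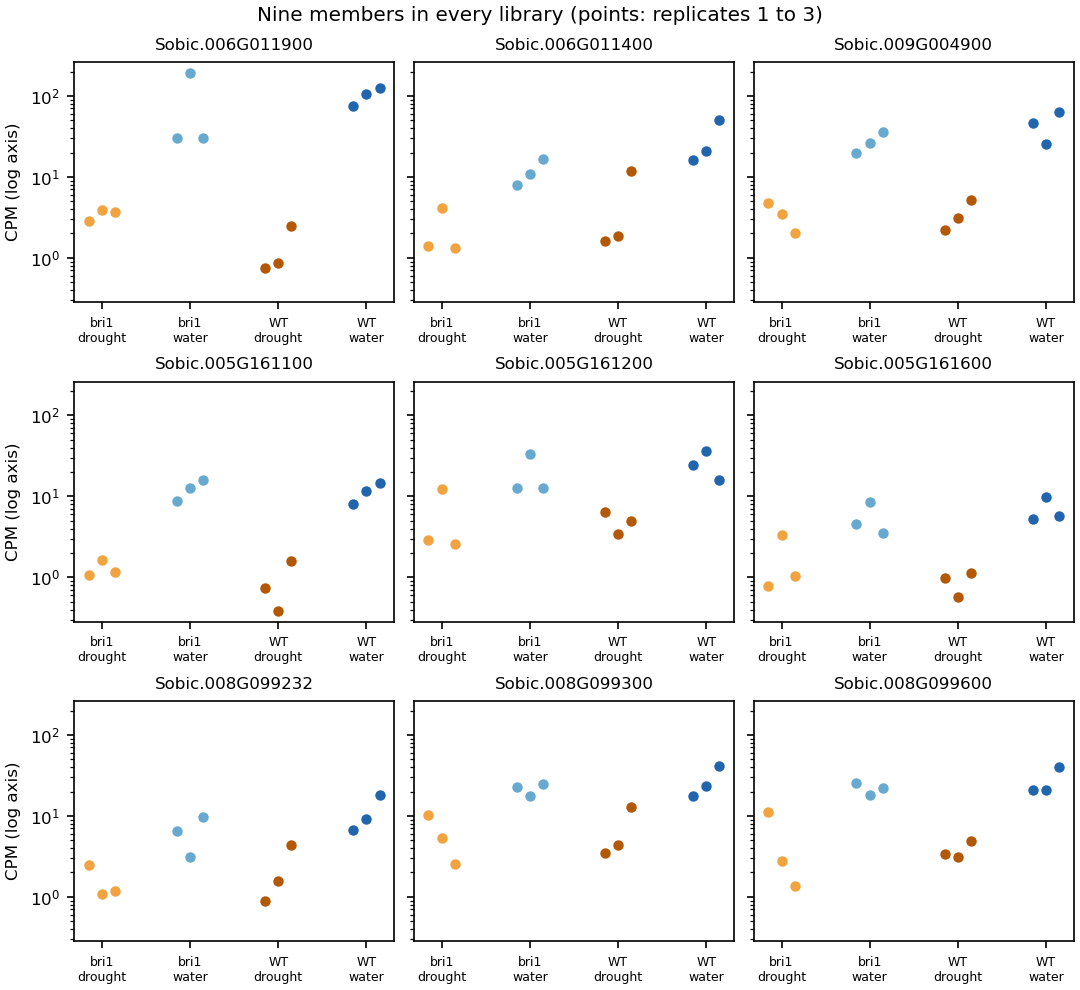
CPM (y axis, log scale) of 9 members in each library by group (x axis), with replicates 1 to 3 from left to right within a group. In every panel the drought points of a line lie below its watered points, as the rule requires of members. NIL-bri1-72 water replicate 2 stands out for Sobic.006G011900 at 191.0 CPM.

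The rule did not compare the lines, but it used the same libraries. Comparisons within a regime therefore share values with the choice of members. The gap between the comparisons in drought and in water is the difference of the drought effects that chose them. In water, the edgeR quasi-likelihood test with Benjamini-Hochberg adjustment called 0 members between NIL-bri1-72 and NIL-WT-72, and 0 of all 20818 genes (0%). At an unadjusted p below 0.05 stood 7 members (4.76%, against 5.24% of all genes), 5 lower in NIL-bri1-72 (3.40%, against 2.43%) and 2 higher (1.36%, against 2.81%). In drought edgeR also called 0 members and 0 genes (0%). There 5 members had an unadjusted p below 0.05 (3.40%, against 2.47% of all genes). These were lower in NIL-bri1-72 (against 1.26% of all genes in that direction), and 0 were higher (against 1.21%). Averaged over the regimes edgeR called 0 members and 0 genes (0%). In that average 19 members had an unadjusted p below 0.05 (12.9%, against 6.49% of all genes). Of these, 14 were lower in NIL-bri1-72 (9.52%, against 3.02%) and 5 higher (3.40%, against 3.47%). This fit takes the drought and water libraries of a replicate number as independent. They may be pairs within a line, a reading from correlations of their deviations that the sample titles do not state. A limma fit to the means of the 3 assumed pairs of each line, added after seeing the data, called 0 genes. In it 13 members had an unadjusted p below 0.05 (8.84%, against 3.89% of all genes), 8 lower (5.44%, against 1.73%) and 5 higher (3.40%, against 2.16%). By DESeq2, 4 genes passed in water, 1 passed in drought and 32 passed in the average, and limma voom called 0 in each. Neither tool called a member.

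Over the whole set, members leaned lower in NIL-bri1-72, by an amount that changed with the library left out. In water the median log2 fold change of NIL-bri1-72 over NIL-WT-72 was -0.23 over the members and -0.01 over all genes, and 105 members (71.4%) were below 0, beside 52.0% of all genes. With 1 library left out the members' median in water ranged from -0.28 to -0.03. The -0.03 was found without NIL-WT-72 water replicate 3, with 54.4% of the members below 0. The median and share over all genes in that fit are not given here. In drought the median was -0.09 over the members and 0.00 over all genes, and 91 members (61.9%) were below 0, beside 49.2% of all genes. That median was -0.30 when NIL-bri1-72 drought replicate 1 was left out and 0.01 when replicate 3 of the same group was. It was 0.22 when NIL-WT-72 drought replicate 3 was left out. Averaged over regimes the median was -0.17 over the members and 0.00 over all genes. With 1 library left out it ranged over the members from -0.24 to -0.000714, the latter without NIL-WT-72 drought replicate 3. In drought the direction thus turned with the library left out.

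**Figure D5:**
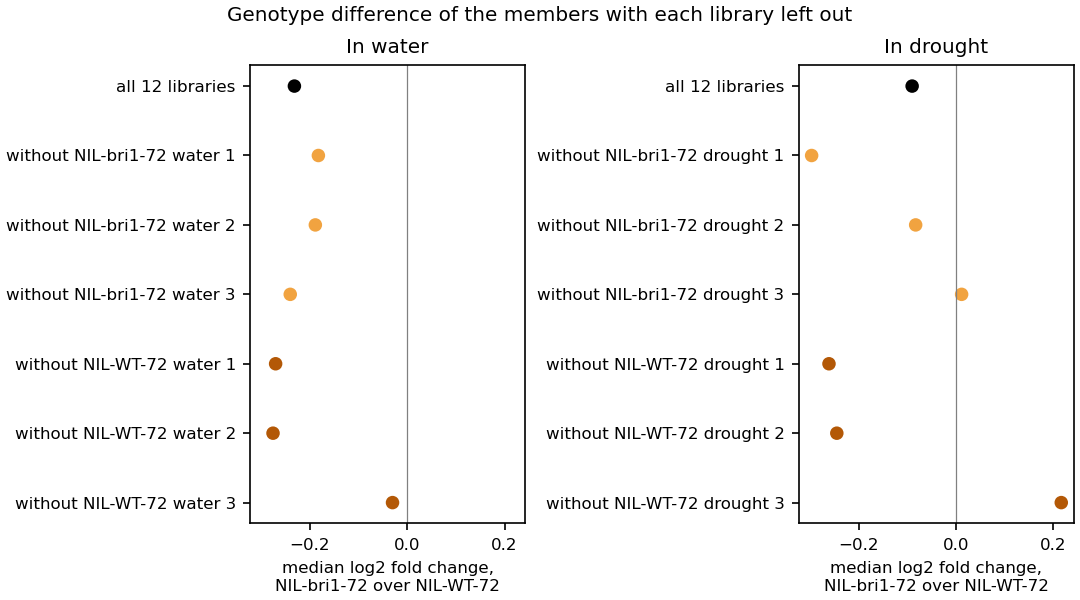
Median log2 fold change of NIL-bri1-72 over NIL-WT-72 across the 147 members (x axis) with all 12 libraries and with each library of the regime left out (y axis), in water (left) and in drought (right). The median is -0.03 in water without NIL-WT-72 water replicate 3, and in drought it ranges from -0.30 to 0.22.

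Some members separated the lines by all replicates within a regime, and their shares are given beside those of all genes. In water 9 members lay lower in every NIL-bri1-72 library than in any NIL-WT-72 library (6.12%, against 3.66% of all genes), and 4 lay higher (2.72%, against 6.36%). In drought 5 lay lower (3.40%, against 3.09%) and 4 higher (2.72%, against 3.38%). In both regimes 0 members lay lower and 0 higher, against 0.274% and 0.437% of all genes.

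The member with the lowest edgeR p between the lines, averaged over regimes, was Sobic.002G391300 on chromosome 2. In drought it had 20.4, 23.0 and 21.7 CPM in NIL-bri1-72, against 30.7, 28.3 and 44.2 CPM in NIL-WT-72. Watered roots had 55.1, 42.4 and 60.1 CPM in NIL-bri1-72, against 70.4, 56.1 and 84.3 CPM in NIL-WT-72. The lines overlapped in water and not in drought. The log2 fold change averaged over regimes came to -0.54 (SE 0.14, edgeR adjusted p = 0.739), with adjusted p between 0.127 and 1.00 over the alternatives.

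Sobic.010G168800 on chromosome 10 was on the other side. In water it had 557.2, 522.0 and 520.8 CPM in NIL-bri1-72, against 369.9, 446.2 and 436.8 CPM in NIL-WT-72. In drought it had 317.6, 266.9 and 235.6 CPM in NIL-bri1-72, against 226.0, 224.2 and 262.3 CPM in NIL-WT-72. The lines overlapped in drought and not in water. Averaged over regimes the log2 fold change came to 0.28 (SE 0.08, edgeR adjusted p = 0.739), with adjusted p between 0.224 and 1.00 over the alternatives.

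Sobic.009G144900 on chromosome 9 had the most negative fold change between the lines in water. It had 3.24, 5.19 and 3.61 CPM in NIL-bri1-72 water, against 34.9, 5.74 and 11.7 CPM in NIL-WT-72 water, where replicate 1 was far above the others. The log2 fold change in water was -2.15 (SE 0.62, edgeR adjusted p = 0.888), or -1.12 without that replicate, with adjusted p between 0.242 and 1.00 over the alternatives. For the most strongly lowered members the averaged log2 fold changes were 0.56 for Sobic.006G011900 (SE 0.51, edgeR adjusted p = 0.833) and -0.39 for Sobic.009G004900 (SE 0.29, edgeR adjusted p = 0.791). For Sobic.006G011900 this value became -0.20 when water replicate 2 of NIL-bri1-72 was left out.

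Whether members were lowered more in one line is built from the differences that chose them and is only described. The lowering was smaller in NIL-bri1-72 than in NIL-WT-72 for 86 members and larger for 61. The drought difference in NIL-bri1-72 minus that in NIL-WT-72 had a median of 0.09, with quartiles of -0.11 and 0.28, and 131 members lay within 0.5 of no difference. Over all 20818 genes its median was -0.02, with quartiles of -0.17 and 0.10, and 19535 genes lay within 0.5. It was above 0 for 9487 of all genes and below 0 for 11331. The extremes were -0.85 for Sobic.002G327700 and 2.03 for Sobic.006G011900. The edgeR interaction called 0 of 20818 genes (0%). DESeq2 and limma voom called 0 members, but their numbers over all genes are not given here, so these counts have no background beside them. An unadjusted p below 0.05 was reached by 1.11% of all genes and by 0 members.

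The edgeR drought contrasts are given as background only, since the rule used them. In NIL-bri1-72, 0 members were among 0 genes called (0%). There 142 members had an unadjusted p below 0.05 for lower levels (3.74% of all genes). DESeq2 called 73 members among 193 genes in NIL-bri1-72. There limma voom called 0 members, and its number over all genes is not given here. In NIL-WT-72, 3 members were among 3 genes called (0.0144%), and 145 had an unadjusted p below 0.05 for lower levels (4.97% of all genes). There DESeq2 called 98 members among 305 genes, and limma voom called 1 member among 1 gene. With the replicate number as a block within each line, edgeR called 12 members among 13 genes in NIL-bri1-72 and 47 among 100 genes in NIL-WT-72. Averaged over the lines, a contrast added after seeing the data, 266 genes were called (1.28%), and 102 members were among the 157 called lower (0.754%). An unadjusted p below 0.05 for lower levels was reached by 7.66% of all genes and by all 147 members. In place of 102 members among 266 genes, DESeq2 called 146 among 1023, and edgeR with the block called 125 among 666. With 1 library left out, edgeR without the block called between 19 and 126 members, and between 41 and 695 genes. By limma voom 119 members were called, and its number over all genes is not given here.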

How the data were processed

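RNA from roots was sequenced as paired reads from stranded mRNA libraries, per the labels' protocols. The authors deposited raw read counts per gene identifier. The submitters' processing notes name HISAT2 2.1.0, featureCounts 1.6.2, FastQC 0.11.2 and Trimmomatic 0.38. The genome build, the strand setting of the counting and the reason why no count is 0 are, in the sources used here, not given. Reads of a gene and of an antisense or overlapping partner therefore cannot be told apart.

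Groups and replicate numbers came from the sample titles. CPM used column sums, and 0.5 CPM was added before log2. The members and lists were chosen with earlier results of these data known. The lists rest on product descriptions and were not applied, because 0 identifiers matched the reference. Without names, the rule names the 2 members with the most negative mean difference.

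The test on counts was that of edgeR 4.0.16 (R 4.3.3): filterByExpr, which kept all 20818 genes, TMM scaling and a quasi-likelihood fit of 4 group means to 12 libraries, without a replicate block. An adjusted p below 0.05 was a call. The SE was obtained by dividing the size of the log2 fold change by the square root of F. The alternatives were DESeq2 1.42.0, limma voom 3.58.1, other scaling, filters, thresholds and pseudocounts, replicate blocks, pair means and each library left out. The test was checked on simulated counts. Deviations from group means correlated between the drought and water libraries of the same number at r of 0.130 to 0.379 in NIL-bri1-72 and 0.102 to 0.276 in NIL-WT-72, so the numbers were taken to pair libraries within a line. For NIL-WT-72 replicate 1 this is weak, since its r of 0.102 is below the 0.120 it has with another number.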

Additional observations from a re-analysis of the deposited data

How the results depend on the processing

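The set held 84 genes at a threshold of -1, 350 with no condition on overlap, 135 to 259 with 1 library left out and 417 (141 of the 147 among them) without NIL-bri1-72 drought replicate 1 and NIL-WT-72 drought replicate 3 together, a choice made after seeing the data. The cause was not tested, except that a stricter or looser condition keeps fewer or more genes by construction. Genes called for drought numbered 193 by DESeq2, 13 with a replicate block within each line and 0 to 14 with 1 library left out in NIL-bri1-72. In NIL-WT-72 they numbered 305 by DESeq2, 1 by limma voom, 100 with the block and 0 to 55 with 1 library left out. Averaged over the lines they numbered 266, and 1023 by DESeq2, 666 with the block and 41 to 695 with 1 library left out. Between the lines 4 genes passed by DESeq2 in water, 1 passed in drought and 32 passed in the average, and leaving out 1 library left edgeR at 0 in each. Replicate numbers were not taken to pair libraries between the lines (r from -0.339 to 0.102), and a replicate block over all libraries left the 3 comparisons of the lines at 0 calls. Pair means within each line left the average at 0 calls, with a median of -0.14 over the members. The median log2 fold change of the members in drought, NIL-bri1-72 over NIL-WT-72, ranged from -0.30 to 0.22 with 1 library left out. The same quantity for Sobic.006G011900 ranged from -1.78 to 0.13 in water and from -0.20 to 0.91 averaged over regimes. For Sobic.009G004900 in drought it ranged from -0.32 to 0.34, and was 0.0527 with a replicate block over all libraries. The causes were not tested. Depth limits the members with few reads, whose lowest count was 12.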
